A study of Ovis aries with 4 samples.

Results

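The genes described are SLC2A1 and SLC2A3, which encode the glucose transporters GLUT1 and GLUT3, SLC16A1, which encodes the monocarboxylate transporter MCT1, and BSG, which encodes basigin. They were chosen by name for their shared function, with earlier results of these data known. All 4 have a row in the deposited table of 25197 features. The ranks and list shares given below are thus not those of genes chosen blind to the data. The samples were 4 sheep conceptuses (Ovis aries), each from a different ewe of a Columbia and Rambouillet cross, recovered on day 14 of pregnancy. The labels give no treatment, allele or second group, and the data give the level of each gene and its spread between 4 animals. The conceptus comprises the embryo proper and the membranes that surround it, and each library is a bulk preparation of ribosome-depleted total RNA from such tissue. The conceptuses are numbered in the order in which they are listed, and the numbers carry no order.

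Glucose enters most cells by facilitated diffusion through SLC2A family proteins. GLUT1 is the widespread carrier of basal uptake, and GLUT3 has a high affinity for glucose. MCT1 carries lactate, pyruvate and ketone bodies together with a proton, in either direction, according to their gradients. Basigin is a single-pass glycoprotein of the immunoglobulin superfamily that MCT1 needs in order to reach the plasma membrane. In ruminants the elongating conceptus lies free in the uterine lumen and takes glucose from the uterine fluid, largely across the trophectoderm, the outer epithelium that makes up most of its mass at this stage.

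Values are RPKM, by definition read counts divided by transcript length and by library size, a unit meant to set genes side by side. No source used here names the counter or annotation. Differences between genes therefore hold only as far as the transcript lengths and read placement used were right. Of the 25197 features, 9602 averaged 1 RPKM or more and 6374 averaged 5 RPKM or more. The counts of list genes given below are to be read beside these. The summed RPKM of a library ranged from 454387 to 522308. Read totals are unknown. Ratios of low values put the depth of conceptuses 2, 3 and 4 at about 0.742, 1.04 and 0.661 of that of conceptus 1, from only 19 to 30 features each. Only 31.6%, 23.3% and 31.0% of these features lay near the given ratio, so the estimates are rough. No pair of libraries shared more than 0.157% of their values over features averaging 5 RPKM or more. Of 11 trophectoderm markers, 10 were measured and all 10 averaged 1 RPKM or more, with KRT8, a keratin of simple epithelia, at 6211 ± 1418 (SD, n = 4), the epithelial adhesion gene EPCAM at 163 ± 30.3 and the cadherin gene CDH1 at 133 ± 13.3 RPKM. The transcription factors of the list were lower, with means from 2.96 (ELF5) to 32.8 RPKM (TFAP2C). The summed level of the 10 markers was 6191, 6211, 5352 and 8670 RPKM in conceptuses 1 to 4. Most of this sum was KRT8 alone, at 5756, 5847, 4983 and 8256 RPKM, so the sum says little about the other markers. In bulk tissue, fewer cells of a type and less RNA per cell cannot be told apart.

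Transcripts of SLC2A3, the high-affinity glucose transporter, stood at 250, 254, 487 and 255 RPKM in conceptuses 1 to 4. Conceptus 3 was apart from the other conceptuses, which lay within 250 to 255 RPKM. The mean was 311 ± 117 RPKM (SD, n = 4), which placed SLC2A3 at rank 243 of all features, and the mean without conceptus 3 was 253 RPKM. The high value of conceptus 3 was also present after each library was rescaled to the same summed RPKM, with 503 RPKM against 237 to 272 RPKM in the others.

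SLC2A1, the carrier of basal glucose uptake, stood at 126, 63.7, 93.7 and 111 RPKM in conceptuses 1 to 4. Conceptus 2 was the lowest and conceptus 1 the highest, at 1.98 times its level. The mean of 98.6 ± 26.8 RPKM (SD, n = 4) ranked 680th of all features. The RefSeq gene table of a newer sheep assembly lists 2 features that overlap the SLC2A1 locus, a lncRNA and a pseudogene. No source used here says whether the authors counted by strand, so reads of these features and of SLC2A1 cannot be told apart. No overlapping gene is listed for SLC2A3, SLC16A1 or BSG.

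SLC16A1, the proton-linked carrier of lactate and pyruvate, stood at 201, 201, 305 and 272 RPKM in conceptuses 1 to 4. Conceptuses 3 and 4 were above conceptuses 1 and 2, and the highest library was 1.52 times the lowest, the narrowest range of the 4 genes. The mean was 245 ± 52.2 RPKM (SD, n = 4), at rank 296.

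BSG, the chaperone of MCT1, stood at 445, 267, 431 and 494 RPKM in conceptuses 1 to 4. Conceptus 2 was the lowest, as for SLC2A1, and the others lay between 431 and 494 RPKM. Its mean of 409 ± 98.4 RPKM (SD, n = 4) was the highest of the 4 genes, at rank 174 of all features. Conceptus 2 also had the lowest summed RPKM of the libraries. After rescaling to the same sum it remained the lowest for BSG, at 286 RPKM against 434 to 460 RPKM, and for SLC2A1, at 68.2 RPKM against 96.8 to 123 RPKM.

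**Figure D1:**
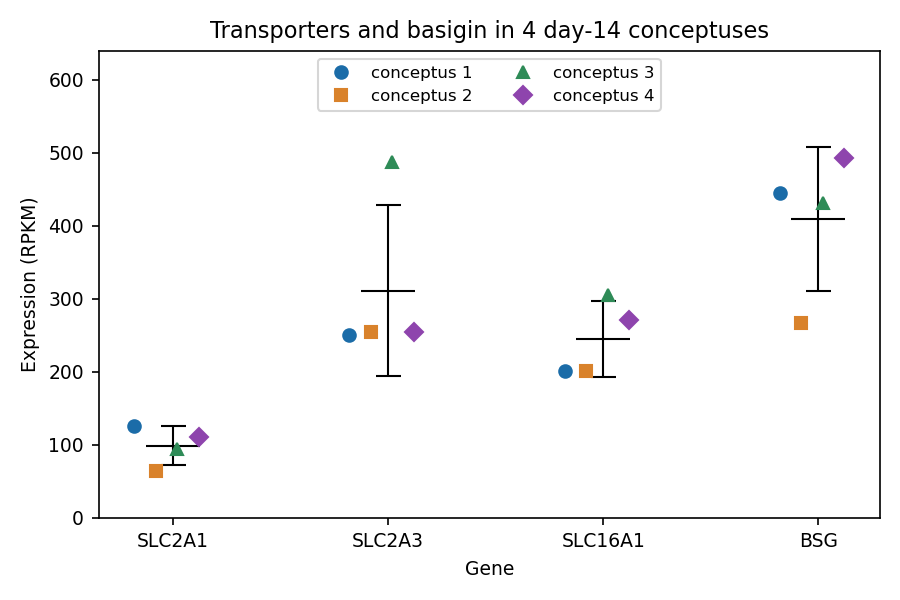
RPKM (vertical axis) of SLC2A1, SLC2A3, SLC16A1 and BSG in each of 4 conceptuses (symbols), with the mean as a wide bar and the SD as an error bar. SLC2A3 is at 487 RPKM in conceptus 3 and at 250 to 255 RPKM in the others, and SLC2A1 and BSG are lowest in conceptus 2.

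By their means the order was BSG, SLC2A3, SLC16A1 and SLC2A1, and SLC2A1 was the lowest of the 4 genes in every conceptus. The order of BSG, SLC2A3 and SLC16A1 was not the same in every library. BSG led in conceptuses 1, 2 and 4, and SLC2A3 led in conceptus 3. SLC16A1 exceeded SLC2A3 in conceptus 4 only. The neighbours BSG and SLC2A3 differed by 0.42 ± 0.556 on the log2(RPKM + 1) scale (SD, n = 4) and SLC2A3 and SLC16A1 by 0.31 ± 0.313, in both cases with 1 conceptus going against the mean and an SD at least as large as the difference. SLC16A1 and SLC2A1, the lowest neighbours, were further apart, at 1.32 ± 0.472 and with SLC16A1 higher in 4 of 4 conceptuses.

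SLC2A3 exceeded SLC2A1 in all 4 conceptuses, but by a ratio of RPKM that varied from 1.99 in conceptus 1 to 5.20 in conceptus 3. It was 3.99 in conceptus 2 and 2.29 in conceptus 4. The ratio was thus high in conceptus 3, where SLC2A3 was high, and in conceptus 2, where SLC2A1 was low. BSG exceeded its client SLC16A1 in all 4 conceptuses, with a ratio of their RPKM of 2.21, 1.33, 1.41 and 1.82 in conceptuses 1 to 4. The steadiest ratio among the 4 genes was that of BSG over SLC2A1, at 3.53, 4.20, 4.60 and 4.45, in conceptuses 1 to 4, although the ratio of the highest to the lowest library was 1.85 for BSG and 1.98 for SLC2A1. On the log2(RPKM + 1) scale its SD was 0.168, against 0.313 to 0.652 for the other pairings of the 4 genes.

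Within each conceptus, 14 of 15 pairs were compared by exact sign-flip permutation, two-sided, on log2(RPKM + 1). The smallest p that 4 conceptuses allow is 0.13, so no pair could pass 0.05. The pairs of SLC2A3 with SLC2A1, of SLC2A1 with SLC16A1, of BSG with SLC16A1 and of BSG with SLC2A1 each gave that exact p of 0.13, or 0.159 after Benjamini-Hochberg adjustment over the 14 pairs. The difference of SLC2A3 and SLC2A1 was known from an earlier analysis of these data, so its p adds no independent support. SLC2A3 against SLC16A1 gave an exact p of 0.250 (0.269 adjusted) and BSG against SLC2A3 an exact p of 0.375 (0.375 adjusted).

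**Figure D2:**
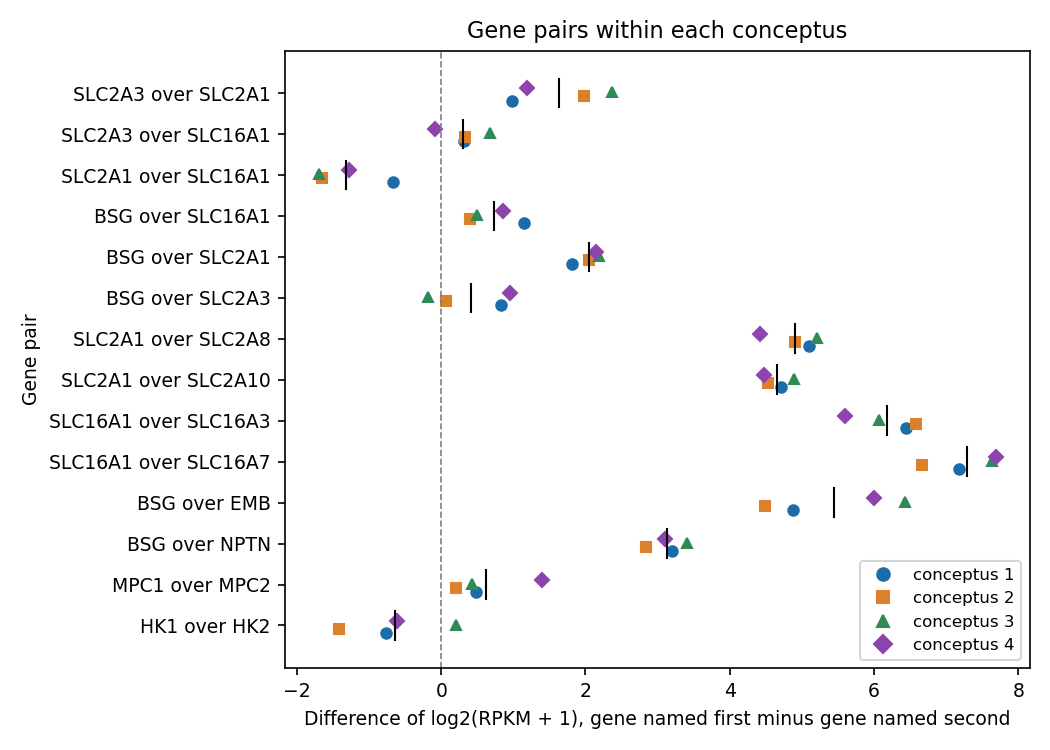
Difference of log2(RPKM + 1) within each conceptus (horizontal axis) for 14 gene pairs (vertical axis), as the gene named first minus the gene named second; symbols are conceptuses, black bars are means over 4 and the dashed line is no difference. Points lie on both sides of the line for SLC2A3 over SLC16A1, BSG over SLC2A3 and HK1 over HK2 only.

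SLC2A1 and SLC2A3 held nearly all of the RPKM of their family. Of 14 facilitative hexose transporter genes, 10 were measured, 6 averaged 1 RPKM or more and 2 averaged 5 or more, and the median gene mean was 1.72 RPKM against 0.128 RPKM over all features. The pair together held 97.2%, 97.5%, 98.6% and 96.9% of the summed RPKM of the 10 genes in conceptuses 1 to 4. SLC2A3 alone held 64.7%, 78.0%, 82.6% and 67.5%. The next were SLC2A13, a proton-coupled myo-inositol carrier, at 3.15 ± 0.986 RPKM (SD, n = 4), SLC2A10 at 2.97 ± 1.13 RPKM, SLC2A8 at 2.42 ± 1.37 RPKM, and SLC2A12 at 1.02 ± 0.343 RPKM.

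SLC2A4, the insulin-responsive carrier of muscle and fat, reached at most 0.16 RPKM and was listed at 0 in conceptus 2. SLC2A9, a urate carrier, reached at most 0.17 RPKM. SLC2A2, the low-affinity carrier of liver and pancreatic islets, was listed at 0.05 RPKM in conceptus 2 and at 0 in the others, and SLC2A6 was listed at 0 in all 4. SLC2A5, the fructose carrier, SLC2A7, SLC2A11 and SLC2A14 were not analysed here. SLC2A1 exceeded SLC2A8 by 4.91 ± 0.348 and SLC2A10 by 4.65 ± 0.187 on the log2(RPKM + 1) scale, in 4 of 4 conceptuses each (exact sign-flip permutation p = 0.13, 0.159 adjusted). The pseudocount of 1 shrinks these differences, which were 5.41 and 5.04 with a pseudocount of 0.1.

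Carriers that take up sugar with sodium, and other sugar carriers, were low. All 7 on that list were measured, 3 averaged 1 RPKM or more and none reached 5. SLC5A1, the sodium-glucose cotransporter of intestine, was at 4.27, 4.26, 1.04 and 1.63 RPKM in conceptuses 1 to 4. It was lower in conceptuses 3 and 4, where SLC16A1 was higher. Such matches between genes, here and below, were picked after the values were seen. How many other features show the same split was not counted. SLC37A4, the glucose-6-phosphate carrier of the endoplasmic reticulum, stood at 2.38 ± 0.467 RPKM (SD, n = 4) and the small sugar carrier SLC50A1 at 1.44 ± 0.270 RPKM.

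Among monocarboxylate transporters, SLC16A1 was the highest in every conceptus. Of 16 genes listed, 15 were measured, 6 averaged 1 RPKM or more and 4 averaged 5 or more, and the median gene mean was 0.670 RPKM. Both counts were near the share over all features, where 9602 and 6374 of 25197 reached these levels. SLC16A1 held 56.9%, 57.4%, 71.0% and 73.1% of their summed RPKM in conceptuses 1 to 4. The second was SLC16A9, a carrier linked to carnitine, at 94.2, 103, 81.4 and 41.4 RPKM. SLC16A9 was thus lowest in conceptus 4, and SLC16A1 exceeded it by 1.95 to 6.56 times. SLC16A13 followed at 29.8 ± 8.58 RPKM (SD, n = 4) and SLC16A10, a carrier of aromatic amino acids, at 15.1 ± 4.47 RPKM.

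The other proton-linked lactate carriers were far below SLC16A1. SLC16A3, which encodes MCT4, known for lactate export from glycolytic cells, was at 1.32, 1.11, 3.57 and 4.63 RPKM in conceptuses 1 to 4. Like SLC16A1, it was higher in conceptuses 3 and 4 than in the other two. SLC16A7, which encodes MCT2, a carrier of high affinity, stood at 0.560 ± 0.301 RPKM (SD, n = 4), and SLC16A8, the carrier of retinal pigment epithelium, was listed at 0.04 RPKM in conceptus 1 and at 0 in the others. SLC16A1 exceeded SLC16A3 by 6.17 ± 0.442 and SLC16A7 by 7.29 ± 0.475 on the log2(RPKM + 1) scale, in 4 of 4 conceptuses (exact sign-flip permutation p = 0.13, 0.159 adjusted). With a pseudocount of 0.1 these differences were 6.69 and 8.61. SLC16A5 stood at 1.32 ± 0.658 RPKM. SLC16A12, SLC16A14, SLC16A11, SLC16A4 and SLC5A12, a sodium-coupled lactate carrier, had means of 0.902, 0.670, 0.395, 0.13 and 0.010 RPKM, and SLC16A6 was listed at 0 in all 4. SLC5A8 was not analysed here.

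BSG was also the highest of the 3 related chaperones. NPTN, neuroplastin, stood at 47.7, 36.6, 39.6 and 56.7 RPKM in conceptuses 1 to 4, and EMB, embigin, at 14.2, 11.0, 3.99 and 6.76 RPKM. BSG held 84.9% to 90.8% of their summed RPKM. EMB was lowest in conceptus 3 and NPTN was lowest, like BSG, in conceptus 2, where the summed RPKM of the library was also lowest. BSG exceeded NPTN by 3.14 ± 0.239 and EMB by 5.45 ± 0.918 on the log2(RPKM + 1) scale, in 4 of 4 conceptuses (exact sign-flip permutation p = 0.13, 0.159 adjusted).

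**Figure D3:**
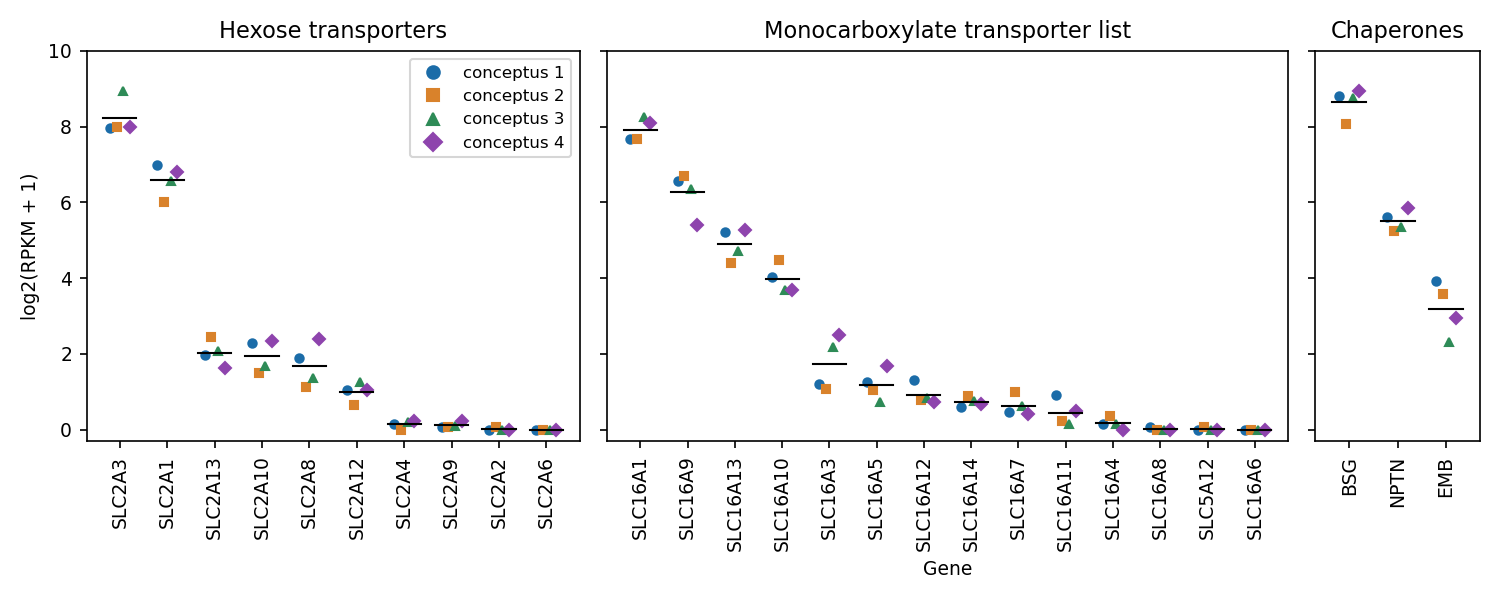
log2(RPKM + 1) (vertical axis) of the genes of the hexose transporter, monocarboxylate transporter and chaperone lists that are described in the text (horizontal axis, ordered by mean), with conceptuses as symbols and their mean as a bar. SLC2A3 and SLC2A1 stand above the other 8 hexose transporters in every conceptus, SLC16A1 leads the second list and BSG the third.

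Of 9 genes for ligands and partners of basigin, 8 were measured and 6 averaged 1 RPKM or more. PPIB, the cyclophilin of the secretory pathway, stood at 540 ± 94.2 RPKM (SD, n = 4), the integrin subunit gene ITGB1 at 74.7 ± 3.02 RPKM and SLC3A2, the heavy chain of the CD98 complex, at 49.6 ± 9.26 RPKM. PPIB was lowest in conceptus 2 and highest in conceptus 4, as BSG was, at 562, 421, 527 and 649 RPKM. The summed RPKM of the libraries ranked the conceptuses in the same order, and no rescaled value of PPIB is given. Basigin is also known as an inducer of matrix metalloproteinases in neighbouring cells. Of 8 such genes, 3 averaged 1 RPKM or more, MMP15 at 15.1 ± 4.44, MMP14 at 2.995 ± 1.05 and MMP9 at 1.44 ± 0.384 RPKM, and MMP1 was listed at 0 in all 4.

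The enzymes that handle the sugars and lactate carried by these proteins were uneven. HKDC1, a member of the hexokinase family, stood at 90.5, 112, 117 and 135 RPKM in conceptuses 1 to 4. It held 89.7% ± 2.01 (SD, n = 4) of the summed RPKM of 5 hexokinase genes, while HK2 stood at 7.93 ± 1.68 and HK1 at 4.79 ± 1.52 RPKM. HK1 was below HK2 in 3 of 4 conceptuses (log2 difference −0.65 ± 0.666, exact sign-flip permutation p = 0.250, 0.269 adjusted). GALK1, galactokinase, stood at 14.8 ± 7.69 RPKM. KHK, which phosphorylates fructose, was listed at 0.05 RPKM in conceptus 1 and at 0 in the others. AKR1B1 and SORD of the polyol route, by which fructose is made from glucose, were not analysed here.

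LDHA, which interconverts pyruvate and lactate, stood at 129, 230, 223 and 194 RPKM in conceptuses 1 to 4. It was lowest in conceptus 1, where SLC2A1 was highest. LDHB stood at 10.6 ± 4.52 RPKM (SD, n = 4), also lowest in conceptus 1, and LDHC and LDHD did not exceed 0.15 RPKM. Pyruvate enters mitochondria through a carrier made of MPC1 and MPC2, which stood at 45.1 ± 9.98 and 28.8 ± 6.01 RPKM. MPC1 exceeded MPC2 by 0.63 ± 0.524 on the log2(RPKM + 1) scale in 4 of 4 conceptuses (exact sign-flip permutation p = 0.13, 0.159 adjusted), with 1.39 in conceptus 4 against at most 0.481 in the others.

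On the hexosamine route, a side branch of glucose use that supplies glycosylation, all 6 genes were measured and 5 averaged 5 RPKM or more. PGM3 stood at 75.5 ± 10.6, GFPT1, the entry enzyme, at 46.5 ± 16.2 and UAP1 at 31.2 ± 5.04 RPKM (SD, n = 4). GFPT1 was at 34.5, 31.8, 65.9 and 53.6 RPKM in conceptuses 1 to 4, higher in conceptuses 3 and 4 as SLC16A1 was. Of 14 genes for regulators and traffic of glucose transporters, 12 were measured and 10 averaged 5 RPKM or more. They were led by VPS35, of the retromer complex that returns GLUT1 to the cell surface, at 52.0 ± 8.97 RPKM, the hypoxia factor gene EPAS1 at 36.4 ± 8.89 RPKM and GIPC1, which binds the tail of GLUT1, at 33.0 ± 15.8 RPKM.

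The spread between conceptuses was set beside that of the 6374 features averaging 5 RPKM or more, whose median coefficient of variation was 20.5%. SLC2A3 had a coefficient of 37.6%, and 12.0% of these features had a higher one. SLC2A1 stood at 27.1% and BSG at 24.0%, with 30.1% and 38.6% of features above them. SLC16A1 was close to the median of these features, at 21.3% with 47.1% above it. The rank of SLC2A3 rested on conceptus 3, since 99.8% of features varied more than SLC2A3 among the other conceptuses. The ranks of BSG and SLC2A1 rested on conceptus 2, without which 88.5% and 62.5% of features varied more.

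The pattern of each gene was compared with those of 5363 other genes that have a symbol and averaged 5 RPKM or more. Likeness was the Euclidean distance between log2(RPKM + 1) values over the 4 conceptuses, after each gene was centred on its own mean, so a small distance means like ratios between animals. With 4 conceptuses many genes are alike by this measure, and 139, 84 and 124 genes lay within 0.25 of SLC2A1, SLC16A1 and BSG, against median distances of 0.764, 0.758 and 0.761. Only 7 lay within 0.25 of SLC2A3, where the median distance was 1.02. Among the 4 genes, SLC2A1 and BSG were the nearest to each other, at 0.291, where SLC2A1 was the 185th nearest gene to BSG. SLC2A1 and SLC2A3 were the farthest apart, at 1.13. SLC16A1 lay at 0.542 from SLC2A3 and at 0.588 from its chaperone BSG.

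The 5 genes nearest to SLC2A1, at distances of 0.046 to 0.070, were G6PC3, a glucose-6-phosphatase, SDHAF2, an assembly factor of succinate dehydrogenase, MTCH1, and the kinesin genes KIF22 and KIF1C. Those nearest to SLC2A3, at 0.156 to 0.242, were MGAT4A, an N-glycan branching enzyme, GK5, ELOVL6, a fatty acid elongase, PIP4K2A, a phosphoinositide kinase, and PRDX1, a peroxiredoxin. MGAT4A stood at 5.71, 5.84, 10.5 and 5.40 RPKM in conceptuses 1 to 4, high in conceptus 3 like SLC2A3 but at a far lower level. Those nearest to SLC16A1, at 0.070 to 0.120, were LPAR3, a receptor of lysophosphatidic acid, BCAR3, NIPSNAP1, ADIPOR2, an adiponectin receptor, and SERPINB9. LPAR3 stood at 90.2, 87.3, 128 and 120 RPKM, with conceptuses 3 and 4 above the other two. Those nearest to BSG, at 0.044 to 0.085, were C1orf210, CGN, which encodes cingulin of tight junctions, IGDCC4, CXADR, an adhesion receptor of epithelial junctions, and VASP, an actin regulator. CGN stood at 30.1, 18.5, 29.3 and 34.4 RPKM, lowest in conceptus 2 as BSG was.

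**Figure D4:**
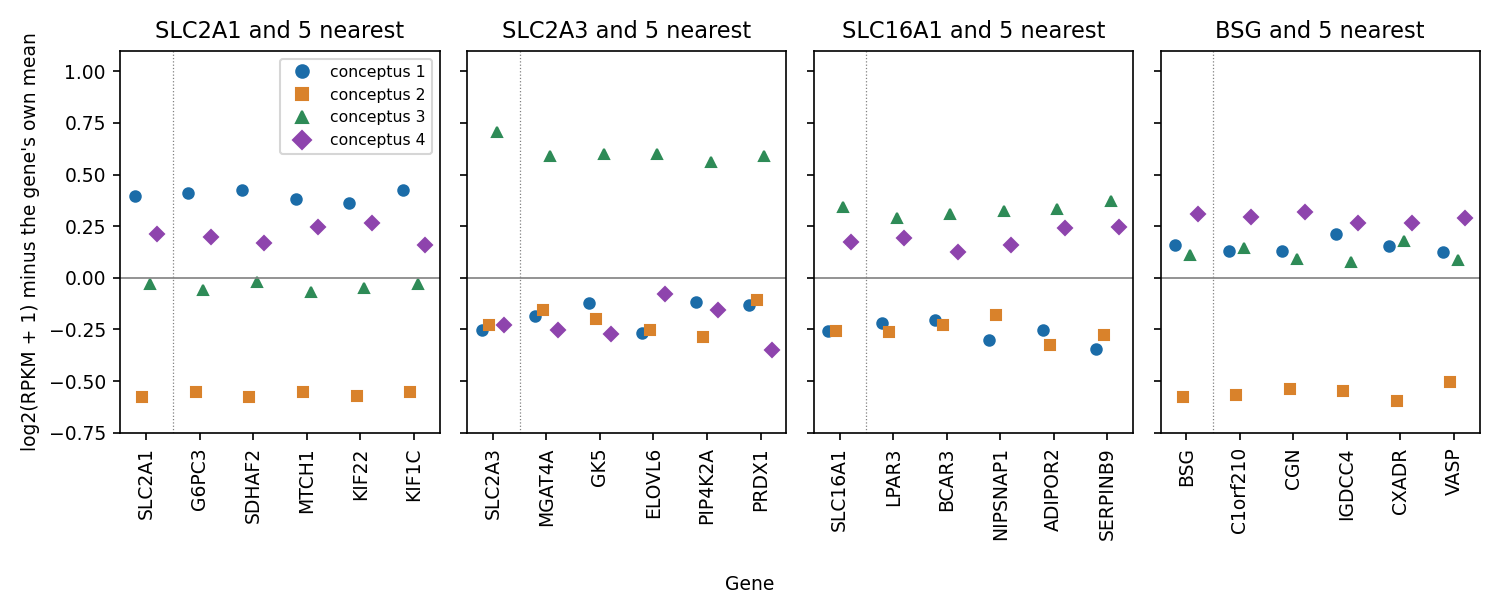
log2(RPKM + 1) minus the gene's own mean (vertical axis) for each of the 4 genes, left of the dotted line, and the 5 genes nearest to it in pattern; symbols are conceptuses. Conceptus 3 stands alone in the SLC2A3 panel and conceptus 2 is the lowest in the SLC2A1 and BSG panels.

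Red blood cells are rich in GLUT1 and basigin in humans, and markers of other tissues were therefore read in the same libraries. Of 18 blood cell markers, 11 were measured and 2 averaged 1 RPKM or more, the transcription factor gene GATA1 at 2.67 ± 1.77 (SD, n = 4) and CD68 at 1.55 ± 0.417 RPKM. GYPC was the third at 0.740 RPKM. The beta globin feature HBBB and the erythroid factor KLF1 were listed at 0 in all 4, and ALAS2 and SLC4A1 did not exceed 0.17 RPKM. HBBB was the only globin read, since the alpha, epsilon and zeta globin genes of the list were not analysed here. The summed level of the 11 markers was 7.18, 4.46, 2.89 and 8.07 RPKM in conceptuses 1 to 4.

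Of 9 endometrial markers 8 were measured and 2 averaged 1 RPKM or more, IGFBP1 at 28.9 ± 10.4 RPKM (SD, n = 4) and the neuropeptide gene GRP at 1.94 ± 2.66 RPKM. GRP was at 5.78 RPKM in conceptus 1, at 0.3 and 1.68 RPKM in conceptuses 2 and 4 and listed at 0 in conceptus 3. MUC1 stood at 0.828 RPKM and the progesterone receptor gene PGR was listed at 0 in all 4. Their summed level was 38.5, 40.7, 14.2 and 35.9 RPKM, lowest in conceptus 3, where SLC2A3 was highest. Extraembryonic endoderm markers, of which 3 of 7 reached a mean of 1 RPKM, summed to 450, 211, 238 and 304 RPKM. Nearly all of this was the apolipoprotein gene APOA1 at 296 ± 105 RPKM, followed by GATA4 at 1.87 ± 0.858 and GATA6 at 1.12 ± 0.326 RPKM. APOA1, and with it the sum, was lowest in conceptus 2, where BSG and SLC2A1 were lowest. The markers of the list did not share 1 pattern. GATA6 was also lowest in conceptus 2, at 0.81 RPKM, but GATA4 was lowest in conceptus 3, at 0.94 RPKM. Of the 4 measured epiblast markers, POU5F1 stood at 2.08 ± 1.43 RPKM, NANOG and SOX2 at 0.460 and 0.085 RPKM, and UTF1 was listed at 0 in all 4. The part of cell makeup in the differences between conceptuses was not tested.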

How the data were processed

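Ribosome-depleted total RNA of 4 day 14 conceptuses (1 group) was sequenced on an Ion Proton, with bases called by Torrent Suite 4.0.2, per the labels' protocols. The authors deposited RPKM values for 25197 features, and a second table of 5527 features whose values are identical. Per the submitters' processing notes the genome build was Oar_v3.1. No source used here names the aligner, counter or annotation. Read totals are unknown, so no counting interval is given, and a value of 0 is reported as listed at 0.

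Members and gene lists were chosen with earlier results of these data known, among them the difference of SLC2A3 and SLC2A1. Of 145 listed genes 125 were measured, 1 of them by an older name (HBB as HBBB) from the RefSeq table of ARS-UI_Ramb_v3.0, and 20 were not analysed here. Some genes that the naming rule picks are not reported here. The text names the members, both genes of each pair, all genes of the transporter, chaperone, pyruvate carrier and lactate dehydrogenase lists, the 3 highest of other lists and the 5 nearest in pattern; other marker, enzyme and partner genes given as low or listed at 0 were chosen after their values were seen. Pairs with no value of 0 and a mean of at least 1 RPKM in 1 gene were tested on log2(RPKM + 1). The distance step was tested on simulated data of 3000 genes, where 5 of 5 planted neighbours were recovered. The planted genes were near copies of their target, so the test checks the calculation and not how reliable the real neighbours are. Alternatives were 2 rescalings, a pseudocount of 0.1, other low-value filters and leaving out each conceptus. Tables were handled with pandas 2.3.3 and numpy 2.4.6 in Python 3.11.15, with plots from matplotlib 3.10.9; exact binomial limits (scipy 1.17.1) over features served only to judge whether a share of features moved under an alternative.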

Additional observations from a re-analysis of the deposited data

Results flagged for a closer look

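The named genes that averaged 1 RPKM or more, the genes nearest in pattern included, and the log2 differences of the pairs gave 84 sets of 4 values, and in each the distance of the highest or lowest conceptus from its nearest neighbour was set against the whole range. It passed Dixon's 95% critical value in 7 sets. Chance would give about 1 in 20 sets, or 4.2, if the sets were independent. They share genes, and the nearest genes were picked for their likeness, so 7 cannot be read as an excess over 4.2. For SLC2A3 it was 0.982 of the range, with conceptus 3 at 487 RPKM and the others at 250 to 255 RPKM. For PGM3, an enzyme of the hexosamine route, it was 0.857 of the range, with conceptus 4 at 91.2 RPKM and the others at 69.0 to 72.2 RPKM.

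The remaining 5 sets belong to genes that were named for their likeness to SLC2A3 or BSG, so their high or low conceptus follows from that choice and adds nothing to it. Conceptus 3 was high for MGAT4A at 10.5 against 5.40 to 5.84 RPKM, GK5 at 16.9 against 8.80 to 9.88 RPKM, ELOVL6 at 65.0 against 35.2 to 40.2 RPKM and PIP4K2A at 68.4 against 37.5 to 42.4 RPKM. Conceptus 2 was low for CXADR, at 14.6 against 25.3 to 27.4 RPKM.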

How the results depend on the processing

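The mean levels of the 4 genes moved by less than 1 SD under both rescalings (to the same summed RPKM and by median ratio). Leaving out 1 of 4 values cannot move their mean by 1 SD, so that setting could not decide. All 14 pair differences kept their direction under both rescalings, without any 1 conceptus and with a pseudocount of 0.1. A rescaling multiplies both genes of a library by the same factor, so it could hardly change a pair difference. For the 11 pairs with the same direction in all 4 conceptuses, neither leaving out 1 conceptus nor the pseudocount could reverse it. Mean levels without 1 conceptus ranged from 89.5 to 110.3 RPKM for SLC2A1, 253 to 332 for SLC2A3, 225 to 259 for SLC16A1 and 381 to 456 for BSG. The share of features that varied more than a gene depended on the settings. For SLC2A1, SLC2A3, SLC16A1 and BSG in that order, it was 38.0%, 18.3%, 54.4% and 46.5% over features averaging 1 RPKM or more, and 63.8%, 50.3%, 73.9% and 69.1% among all features above 0; the cause was not tested. With median-ratio rescaling it was 41.9%, 6.83%, 35.7% and 44.6%. With rescaling to the same sum it was 40.9%, 8.90% and 52.5% for SLC2A1, SLC2A3 and BSG. Without 1 conceptus it ranged from 19.7% to 62.5% for SLC2A1, 7.22% to 99.8% for SLC2A3, 35.2% to 56.2% for SLC16A1 and 24.9% to 88.5% for BSG. With candidates of at least 1 RPKM, 3, 2, 3 and 2 of the 5 nearest genes remained for SLC2A1, SLC2A3, SLC16A1 and BSG, and with a pseudocount of 0.1, 3 remained for BSG. Requiring 1 RPKM in every conceptus left 1 endoderm, 0 epiblast, 1 blood and 1 endometrial marker. No paired analysis was possible because the samples form 1 group, with no second group whose samples could be matched to them; the gene pairs are compared within libraries. Without read totals the precision of single values, above all of those under 1 RPKM, is unknown.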
